A study of Mus musculus with 19 samples.

Results

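The mitochondrial respiratory chain is assembled from subunits encoded in 2 genomes, and the genes described here are the nuclear ones: those listed in the gene tables of the 7 libraries of mouse primary somatosensory cortex whose symbols begin with Nduf, Uqcr, Atp5, Cox4, Cox5, Cox6, Cox7 or Cox8, together with Sdha, Sdhb, Sdhc, Sdhd and Cyc1. Of 103 genes so named, 99 had a mean of at least 1 FPKM over the libraries, where FPKM counts sequenced fragments scaled to transcript length and library depth. They were 99 of the 13164 genes with such a mean and of 24130 genes listed in at least 1 library. By complex they fell into 47 genes of complex I, 4 of complex II, 11 of complex III, 18 of complex IV (with Ndufa4, a complex I name for a complex IV subunit) and 19 of complex V. By kind, 80 were structural subunits, 8 were assembly factors of complex I, 8 were processed pseudogenes and 3 were related genes with another role (Ndufa4l2, Cox7a2l and Atp5s). Just inside the threshold were Cox6b2, Ndufa4l2 and Cox4i2 with means of 1.57, 1.88 and 2.08 FPKM. Just outside were Atp5l-ps1 at 0.882, Cox8b at 0.234, Cox7b2 at 0.214 and Atp5l-ps2 at 0.112 FPKM.

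All libraries were of polyadenylated RNA from male C57BL/6 mice (the substrain C57BL/6J, per the study's methods) aged 56 days, with no treatment or genetic change, and the cortical depth was cut into 6 segments named A to F from the surface inwards. Per the labels, A held mostly layers 1 to 3, B mostly layer 4, C and D mostly layer 5, E mostly layer 6 and F mostly layer 6b. Per the study's methods, C and D corresponded approximately to the upper and the lower part of layer 5. Tissue of 8 mice was pooled for A, C, D, E and F, whereas for B the same 8 mice were pooled by litter into B1 and B2, 4 littermates each. Segment B alone thus had a replicate, and a difference between B1 and B2 is also one between litters, which cannot be told apart from a difference between libraries. The series also has 12 samples from dorsal and lateral cortex, which were not analysed here. The deposited 95% intervals cover the error within a library and not the spread between mice, and the p-values below measure the spread between these 7 libraries only. In pooled tissue, fewer cells of a type and less RNA per cell cannot be told apart.

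Electrons from NADH enter the chain at complex I and those from succinate at complex II, which is also an enzyme of the citric acid cycle. Ubiquinone carries them to complex III, and cytochrome c carries them on to complex IV, which reduces oxygen. Complexes I, III and IV pump protons across the inner membrane, and complex V, the ATP synthase, lets them return through a ring of c subunits while its F1 head makes ATP. Complex II is the only complex with no subunit encoded in the mitochondrial genome. Neurons spend much of their ATP on ion pumping, and grey matter is rich in mitochondria.

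Some properties of the libraries touch these genes and are given first. Library A held the most mitochondrially encoded RNA, 21.8% of summed FPKM, followed by B2 at 18.2%, with 5.03% to 9.78% in the other 5. The average internal insert size was smallest in A, 164 nt, and largest in B1, 239 nt, against 172 to 208 nt elsewhere. Estimated depth was 31.3 M fragments in A and 41.6 to 74.9 M fragments in the others. The marker lists followed the dissection in most respects: the summed FPKM of 8 oligodendrocyte genes went from 326 in A to 12506 in F, the upper layer genes Cux2 and Rorb summed to 61.3 in B1 and 4.67 in E, and the layer 5 genes Fezf2 and Bcl11b to 39.0 in C and 37.0 in D. That last sum was also 31.0 in E and 33.3 in F, where Bcl11b was highest, against 6.96 to 11.03 in A, B1 and B2. Library A also had the highest sums of the meningeal list, 25.4 against 3.45 to 6.04 FPKM (Igf2 17.8, Dcn 4.04 and Col1a1 3.52 in A). The endothelial sum was 68.0 there against 35.0 to 47.5 FPKM through Cldn5 alone (51.0 FPKM), since Pecam1, Tek and Slco1a4 were lowest in A (2.87, 1.14 and 3.77 FPKM) and Flt1 was higher in B2 (9.85) than in A (9.28). The neuronal sum was lowest in A, 1516 against 2437 to 3142 FPKM, as were 4 of its 5 genes, while Rbfox3 was highest there (337 FPKM, against 107 in F). At the deep end, the choroid plexus list summed to 201 in F and 66.5 in E (Ttr 199 and 65.7) against 1.31 to 26.6 FPKM elsewhere, and the striatal list to 26.03 in F and 13.04 in E against 2.52 to 6.97 FPKM. The part of these differences in the results below was not tested, except where a value without the library is given. The marker Ctgf of layer 6b could not be matched by symbol.

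The 99 genes were highly expressed and short. Their median mean level was 55.3 FPKM against 7.85 FPKM for all tested genes, and the median length of their main transcript was 591 nt against 2416 nt. Together they made up 3.07% of all FPKM in A, against 2.02% and 2.38% in the replicates B1 and B2, 2.62% and 2.61% in the layer 5 segments C and D, and 2.22% and 2.14% in E and F. The share was thus highest in A and lowest in B1, with C and D next after A in this total. With the mitochondrially encoded genes left out of the total, the same share was 3.92% in A, then 2.91%, 2.90% and 2.89% in B2, C and D, 2.41% in E, 2.25% in F and 2.19% in B1, so that B2 was level with C and D.

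The distribution of a gene over the cortex was expressed as the share of its FPKM in each of the 6 segments, with B as the mean of B1 and B2, so that an even gene has about the same share everywhere. Segment A held a median of 24.9% of a member's FPKM, against 12.7% for all tested genes, and C and D together held 33.5%, against 33.8%. Segment F held 13.9%, against 18.2%. In 64 of 99 members A was the highest segment (64.6% against 23.7% of tested genes), in 14 it was C, in 16 D, in 3 E, in 2 F and in none B. The shares of tested genes for C, D, E, F and B were 9.75%, 8.90%, 18.3%, 32.4% and 6.92%. C or D was thus highest in 30.3% of members against 18.6% of tested genes. Read by intervals, 59 of 99 members had an interval in A above those of every other library, where 14.4% of all tested genes did. Only 1 member, Sdha, stood above every other library in F, where 13.4% of tested genes did.

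**Figure D1:**
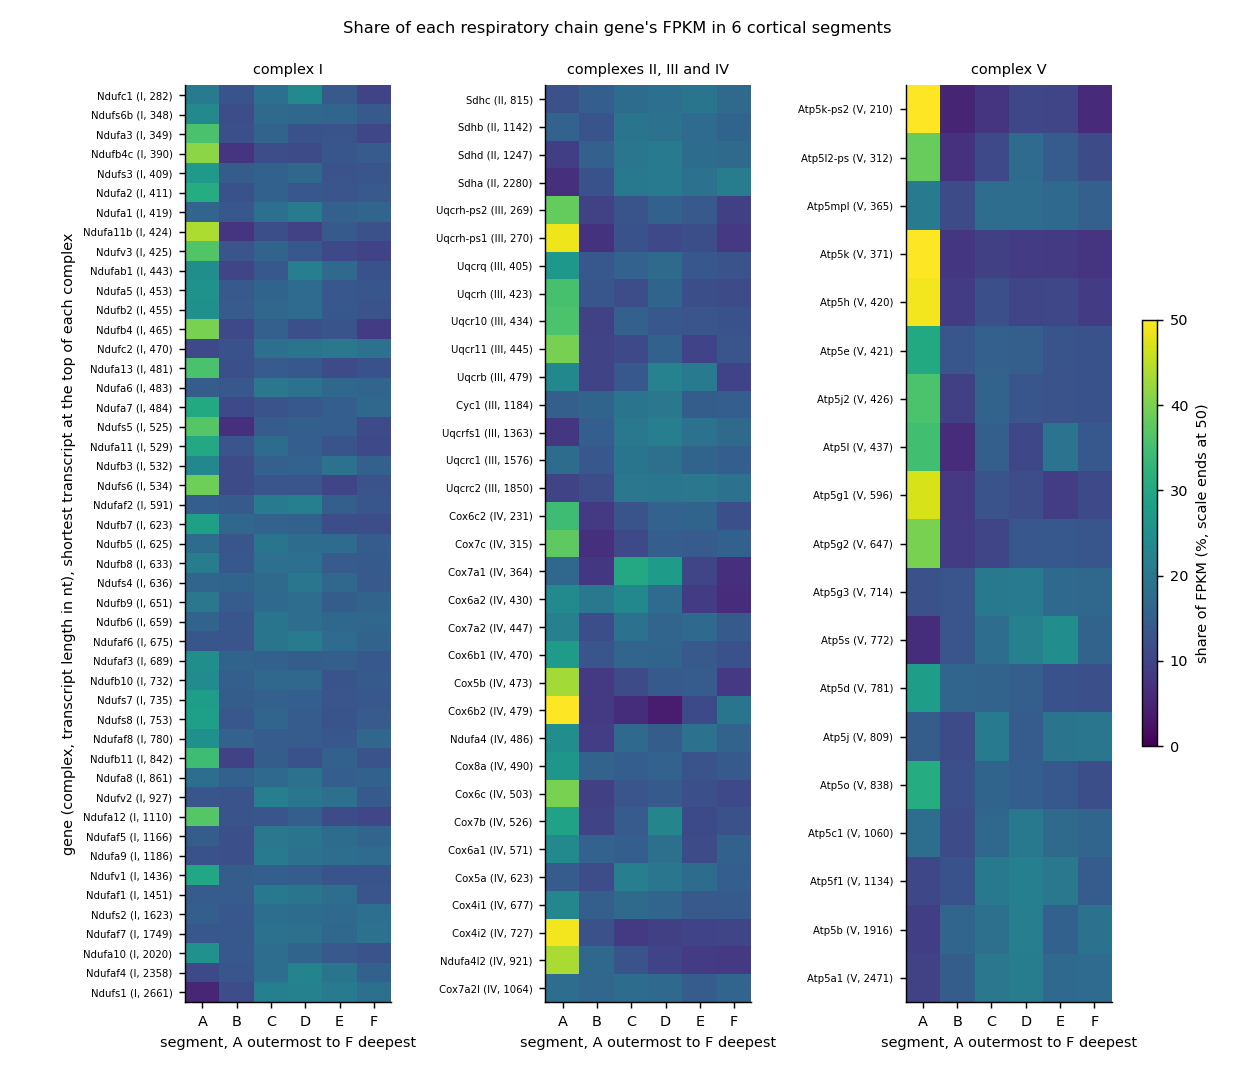
Share of each respiratory chain gene's FPKM (%, colour) in the 6 segments A to F (x axis), with genes grouped by complex and ordered within each complex from the shortest to the longest transcript (y axis). Most short genes at the top of complexes I, III, IV and V have their highest share in A, where members run from 5.30% (Ndufs1) to 60.0% (Atp5k-ps2).

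The complexes differed in these shares. Complex II, with the longest main transcripts (median 1194.5 nt against 445 to 647 nt in the others), had the lowest median in A. Genes of like length are compared below. The median share in A was 24.7% for complex I, 10.9% for complex II, 26.7% for complex III, 27.1% for complex IV and 30.5% for complex V. The share in C and D together was 34.0%, 39.1%, 33.1%, 32.2% and 31.1% in the same order. Segment A was highest for 29 of 47 genes of complex I, 0 of 4 of complex II, 7 of 11 of complex III, 16 of 18 of complex IV and 12 of 19 of complex V, against 23.7% of all tested genes. Summed over its genes, complex IV had 1.54 times the mean FPKM of C and D in A, complex I 1.41 times, complex III 1.33 times, complex V 1.11 times and complex II 0.537 times. It was 1.13 times for all tested genes, but that sum includes the mitochondrially encoded genes. These made up 21.8% of FPKM in A against 9.78% in C and 9.58% in D, so 1.13 is not a background for nuclear genes.

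**Figure D2:**
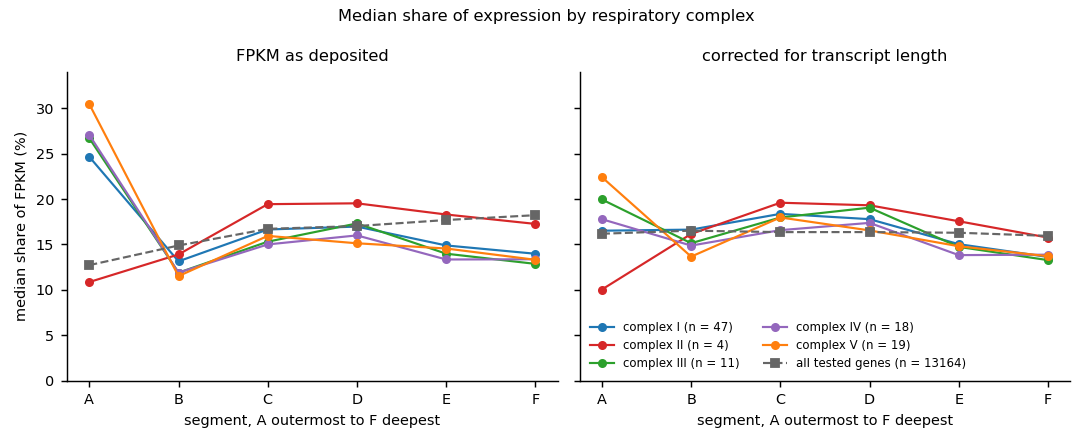
Median share of FPKM (%, y axis) in segments A to F (x axis) for the genes of complexes I to V and for all tested genes, as deposited and after correction for transcript length. As deposited, complexes I, III, IV and V lie at 24.7% to 30.5% in A and complex II at 10.9%; after the correction complex I is at 16.5%, complex II at 10.03% and complex V at 22.4%, with all tested genes at 16.2%.

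Complex I takes electrons from NADH through a flavin and a chain of iron-sulphur clusters carried by its core subunits, around which accessory subunits are arranged. The core genes had a median share in A of 26.8% (7 genes), the accessory genes 25.1% (29 genes) and the assembly factors 14.7% (8 genes). Corrected for transcript length these were 17.4%, 16.5% and 15.3%, and for length and GC content 17.6%, 16.6% and 17.2%, which leaves little between the roles. Ndufs1 (chr1:63190170-63223396, mm9), the largest core subunit, which holds iron-sulphur clusters, measured 12.8, 25.5, 31.6, 52.3, 53.0, 50.2 and 44.7 FPKM, given here and below from the surface to the deepest library with B1 before B2. It was low in A, intermediate in B1 and B2 and high from C to F, and its interval in A, 12.3 to 13.3, lay below all others. Its share in A, 5.30%, was the lowest and its share in C and D, 43.6%, the highest of complex I. Ndufb9, an accessory subunit of the membrane arm and the most abundant complex I gene, measured 248, 156, 206, 213, 222, 184 and 199 FPKM. Apart from the low B1 its libraries lay close together, with A the highest. Ndufb10, another accessory subunit of the membrane arm, was at 202 FPKM in A and at 109 to 141 FPKM in the other libraries. Ndufaf2, an assembly factor of complex I, measured 19.9, 14.2, 23.6, 27.3, 28.5, 20.2 and 17.8 FPKM, and C and D were above every other library by their intervals. The highest share in A within complex I, 43.8%, belonged to Ndufa11b, a processed pseudogene. It was at 31.9 FPKM in A and 4.23 to 10.4 FPKM elsewhere, while its parent gene Ndufa11 (chosen after its values were seen) had a share of 30.2%. Reads of pseudogenes and parents with near-identical sequence could be assigned to either, so all 8 pseudogenes are uncertain, and so are their parent genes.

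Complex II has 4 subunits, and none was highest in A. Sdha (chr13:74460264-74487670, mm9), the flavoprotein that oxidises succinate, measured 50.5, 98.0, 92.7, 153, 156, 144 and 161 FPKM. Its value in A (interval 49.1 to 51.9) was below B1 and B2, and these were below the 4 deeper libraries, with D at 3.08 times A. Sdhb, the iron-sulphur subunit, measured 77.3, 54.6, 72.9, 95.1, 91.6, 86.3 and 79.5 FPKM. Here C and D were above every other library, but A was above B1 and the range was narrow. Sdhc, a membrane anchor that binds ubiquinone, measured 39.7, 49.1, 46.3, 57.04, 58.7, 62.5 and 55.4 FPKM. Sdhd, the other anchor, measured 19.996, 33.1, 32.9, 41.9, 44.4, 37.8 and 36.9 FPKM. Both anchors were lowest in A by their intervals, as were Sdha and 5 members of other complexes (8 of 99, against 33.0% of tested genes). The main transcripts of complex II were 815 to 2280 nt long, and none was short by the classes used below.

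Complex III divided by role. Its catalytic and core subunits had a median share in A of 12.7% (4 genes), and its small accessory subunits 35.4% (5 genes), or 13.8% and 23.0% corrected for length. Uqcrfs1, the Rieske iron-sulphur protein, measured 24.0, 45.6, 44.3, 60.4, 64.9, 56.3 and 52.1 FPKM, with the lowest value in A, the highest in D and B1 and B2 between them, close to each other. Cyc1, cytochrome c1, which hands electrons to cytochrome c, was nearly even: 97.3, 111, 95.5, 124, 127, 94.2 and 96.6 FPKM. Its values in C and D were still above every other library by their intervals. Uqcrc1, a core subunit, measured 117, 84.3, 94.3, 129, 122, 107 and 98.5 FPKM. In contrast, Uqcrq, an accessory subunit, measured 228, 103, 131, 135, 148, 116 and 110 FPKM, with A alone well above the rest. The highest share in A of complex III, 48.7%, was that of the pseudogene Uqcrh-ps1, which was at 25.6 FPKM in A and at 2.61 to 6.63 FPKM elsewhere.

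Complex IV showed the most uniform bias to A. The catalytic subunits of this complex are mitochondrially encoded, and the nuclear ones surround them. Cox8a, the most abundant member together with Cox4i1, measured 758, 459, 452, 430, 452, 368 and 409 FPKM. Cox4i1, the main form of a regulatory subunit that binds adenine nucleotides, measured 739, 408, 556, 550, 518, 446 and 450 FPKM. In both, A was high and the other libraries lay within a narrow band. Cox6c, a small membrane subunit, measured 125, 12.6, 46.6, 41.2, 44.0, 38.2 and 34.7 FPKM, high in A and very low in B1 by comparison with B2. Ndufa4 measured 119, 20.8, 68.1, 83.2, 71.8, 90.3 and 77.6 FPKM and was also lowest in B1. Cox5a was an exception, with 70.2, 33.0, 81.1, 103, 94.4, 85.4 and 71.8 FPKM. It was highest in C and then D, both above every other library, and had the lowest share in A of complex IV, 14.6%.

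In complex V the shares differed within each of its parts. The median share in A was 18.0% for the F1 subunits (5 genes), 22.8% for the peripheral stalk (4), 40.0% for the c ring genes (3) and 35.4% for the other membrane subunits (4), or 17.4%, 19.98%, 32.4% and 23.9% corrected for length. Both F1 and the c ring held genes on either side, with 2 of 5 and 2 of 3 highest in A. By summed FPKM, which the abundant genes dominate, A stood at 0.906 times the mean of C and D for F1 and 0.837 times for the c ring, against 2.36 times for the other membrane subunits. Atp5b, the catalytic beta subunit of F1, measured 246, 524, 333, 484, 563, 408 and 495 FPKM. Its value in A was the lowest, but B1 and B2 were far apart, with B1 the higher. Its main transcript of 1916 nt was level in B1 and B2, at 328 and 333 FPKM. The gap lay in a transcript of 343 nt, listed at 196 FPKM in B1, 79.7 in D, 93.3 in F and 0 in A, B2, C and E. Atp5a1, the alpha subunit, measured 179, 271, 259, 359, 378, 310 and 315 FPKM, low in A and highest in D and C. Atp5f1, the b subunit of the peripheral stalk, measured 38.5, 38.0, 52.5, 72.2, 77.4, 71.8 and 52.1 FPKM and had the highest share in C and D of the complex, 41.9%. Atp5j2, a small membrane subunit, measured 193, 21.0, 80.2, 85.7, 71.5, 69.2 and 67.7 FPKM, high in A and low in B1. The pseudogene Atp5k-ps2 had the highest share in A of all members, 60.0%, at 90.6 FPKM in A and 5.97 to 16.01 FPKM elsewhere. Atp5s, a coupling factor related to the synthase, had a share in A of 6.57%, the lowest of the complex, with 1.83, 3.30, 4.08, 4.99, 6.05, 6.83 and 4.46 FPKM.

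Several subunits exist as paralogs, and their members were distributed differently. The Atp5g genes encode precursors of the same mature c subunit. Atp5g3, the most abundant, measured 155, 134, 201, 255, 257, 217 and 209 FPKM, and C and D were above every other library. Atp5g1 measured 65.9, 8.32, 14.8, 18.1, 16.7, 12.8 and 15.4 FPKM, with A at 3.95 times D. Atp5g2 measured 10.4, 1.62, 3.01, 2.73, 3.53, 3.58 and 3.46 FPKM. Atp5g1 and Atp5g2 were thus high in A alone, with shares of 46.9% and 40.0%, whereas Atp5g3 had 12.3% in A. Their main transcripts differ little in length (596, 647 and 714 nt for Atp5g1, Atp5g2 and Atp5g3), and corrected for length the shares in A were 37.6%, 32.4% and 9.75%.

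Among the tissue forms of complex IV, Cox6a2, the heart and muscle form of subunit VIa, measured 19.2, 14.5, 18.1, 18.9, 14.2, 7.15 and 5.12 FPKM. It was lower in E and F than in any other library by the intervals. Its counterpart Cox6a1 was at 280 to 579 FPKM. Over the same libraries Pvalb, which marks parvalbumin interneurons, measured 61.1, 70.2, 118, 145, 117, 56.4 and 16.5 FPKM. It was thus highest in C and lowest in F. Kcnc1 of that list was highest in B1 (63.5 FPKM) and about as low in F as in A (20.1 FPKM). Gad1 and Gad2 of the same list went from 15.9 and 7.15 FPKM in A to 67.2 and 22.6 in D. They were lower again in F, at 32.9 and 15.9 FPKM. The fitted slope with depth was negative for Pvalb and Kcnc1 and positive for Gad1 and Gad2, but none of these genes changed steadily. The list as a whole summed to 85.3 to 273 FPKM, lowest in F and highest in C. Cox7a1, the heart and muscle form of subunit VIIa, measured 3.02, 0.754, 2.17, 5.43, 4.93, 1.87 and 1.25 FPKM. It had the highest share in C and D of all members, 57.7%, and both were above every other library, although its widest interval was 80.8% of its mean. Cox7a2, its widely expressed counterpart, was at 62.4 to 187 FPKM, and Cox7a2l, a factor in supercomplex assembly, at 53.2 to 67.9 FPKM. The muscle genes Ckm and Mb were below 1 FPKM in every library (at most 0.250 and 0.323 FPKM) and Tnnt3 was at 0 in 4 libraries. Acta1, the remaining gene of the muscle list, was at 11.0 FPKM in A, 6.97 to 8.35 FPKM from B1 to E and 4.10 FPKM in F and fell with depth (adjusted p = 0.0352 by limma). The part of interneurons and muscle in these values was not tested.

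Cox4i2, the form of subunit IV known from lung and from low oxygen, measured 6.35, 1.39, 1.81, 1.10, 1.23, 1.31 and 1.35 FPKM. Cox6b2, the testis form of subunit VIb, measured 5.10, 0.573, 1.14, 0.659, 0.390, 1.14 and 1.98 FPKM, against 118 to 344 FPKM for Cox6b1. Ndufa4l2, a relative of Ndufa4 known to be induced by low oxygen, measured 4.91, 1.93, 1.83, 1.44, 1.14, 0.972 and 0.929 FPKM. All of these minor forms were high in A, where the 3 meningeal genes and Cldn5 were also highest but 3 of 5 endothelial genes were lowest, and their shares there were 49.1%, 50.4% and 43.6%. Cox8b, the heart and muscle form of subunit VIII, was at most at 0.394 FPKM and is no member.

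**Figure D3:**
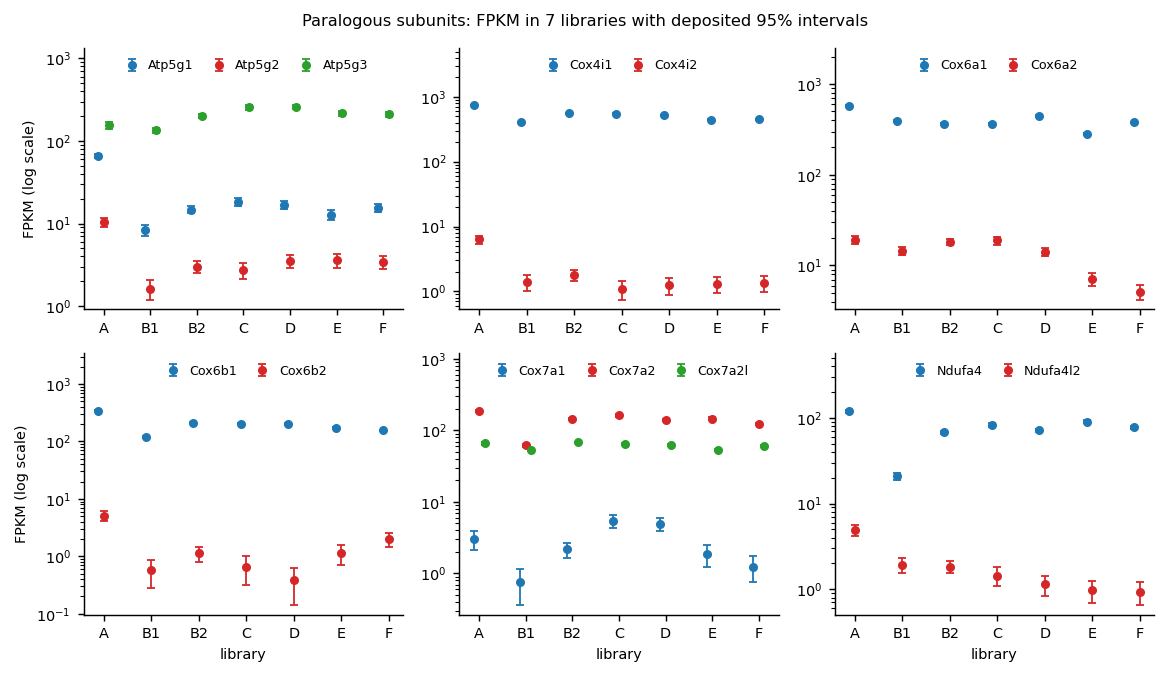
FPKM (y axis, log scale) of paralogous subunits in the 7 libraries (x axis), with points for the deposited values and bars for the deposited 95% intervals. Atp5g1 falls from 65.9 in A to 8.32 in B1 and Atp5g3 lies at 134 to 257; Cox7a1 is highest in C and D, and Cox4i2, Cox6b2 and Ndufa4l2 are highest in A.

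The share in A went with transcript length. The 62 short members (main transcript up to 700 nt) had a median share in A of 28.7%, the 27 of medium length (over 700 and up to 1500 nt) 17.9% and the 10 long ones (over 1500 nt) 10.7%. Other tested genes of the same classes had 24.6%, 16.9% and 11.2%. The share in C and D together ran the other way, with 30.9%, 35.8% and 39.7% in members and 29.2%, 32.8% and 34.5% in other genes. Across the 99 members Spearman's rho between length and the share in A was -0.59, and across the 13001 tested genes with a length it was -0.42. These are descriptions across genes measured in the same libraries, and genes are not replicates.

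Members were also set beside other genes of the same length class. Of short members 82.3% were highest in A, against 59.2% of other short genes. Of the 10 long members 7 were highest in C or D, 70.0% against 19.3% of other long genes. The long member highest in A was Ndufa10, an accessory subunit of complex I (named after its values were seen), at 103 FPKM in A and 39.5 to 73.1 FPKM elsewhere. After a loess correction for length the median share of the members was 17.4% in A, 18.2% in C and 18.3% in D, against 16.2%, 16.4% and 16.4% for tested genes, and 14.8% in E and 13.7% in F against 16.3% and 15.9%. With this correction 42 of 99 members were highest in A in place of 64, and with length and GC content together 38 were, with 50 highest in C or D in place of 30. All tested genes were not counted in this way after the corrections. These counts thus have no background and show only the change from the deposited values. Complex II kept a low share in A after the correction for length, 10.03%, while complexes I, III, IV and V had 16.5%, 19.95%, 17.8% and 22.4%. For comparison at like length, the medium-length Sdhb, Sdhc and Sdhd had 15.7%, 12.4% and 9.35% in A against 16.9% for other genes of that class, and the long Sdha 6.65% against 11.2%. Among members of medium length the median share in A was 24.6%, 12.4%, 11.5%, 43.6% and 14.7% for complexes I to V. Among long members it was 13.5%, 6.65%, 13.95% and 9.63% for complexes I, II, III and V. A low share in A was thus not particular to complex II at these lengths.

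**Figure D4:**
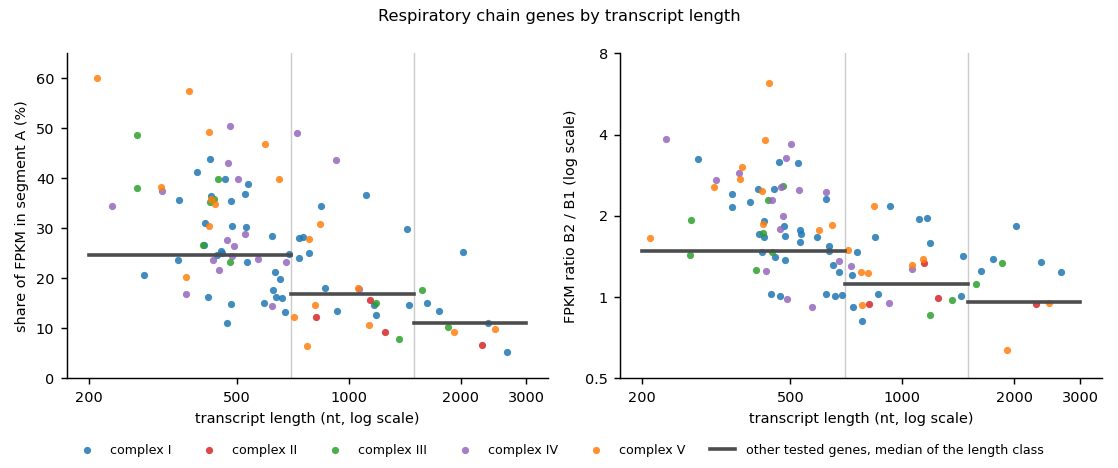
Transcript length (nt, log scale, x axis) of each member, coloured by complex, against its share of FPKM in A (%) and against the ratio of B2 to B1 (log scale). Both decline with length: the median share in A is 28.7% for short, 17.9% for medium and 10.7% for long members, and the median ratio of B2 to B1 is 1.84, 1.28 and 1.24.

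The replicate libraries of segment B differed by amounts as large as those between segments. B2 was above B1 in 86 of 99 members, with a median ratio of 1.59 against 1.02 for tested genes, whereas the median ratio of A to D was 1.47 against 0.739. By non-overlapping intervals B2 was the higher in 74 members (against 29.2% of tested genes) and B1 in 7 (against 27.7%). The median ratio of B2 to B1 was 1.59 in complex I, 0.971 in complex II, 1.44 in complex III, 2.14 in complex IV and 1.78 in complex V. It was 1.84 in short, 1.28 in medium and 1.24 in long members, and 1.49, 1.12 and 0.963 in other genes of these classes. Atp5l, a membrane subunit of complex V, had the largest ratio, 6.24, from 19.6, 0.981, 6.12, 8.54, 6.05, 10.8 and 7.72 FPKM. Its B1 value was the lowest of all libraries, as it was for 52 of 99 members by the intervals, against 9.30% of tested genes. B1 had the largest insert size and A the smallest, and the part of insert size in these differences was not tested. A difference between segments can therefore be set against the difference between replicates for each gene: Sdha and Uqcrfs1 had B2 to B1 ratios of 0.945 and 0.973 and D to A ratios of 3.08 and 2.70, while Cox6c had ratios of 3.70 for B2 to B1 and 2.83 for A to D.

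Other pairs of libraries were compared by intervals in the same way. A was above D in 60 members (against 24.2% of tested genes) and below it in 27 (against 52.6%). Between the neighbouring layer 5 segments C and D, C was higher in 20 members (against 10.7%) and D in 16 (against 13.9%). D was above F in 59 members (against 19.2%) and below it in 4 (against 32.2%). F was the library with the highest oligodendrocyte, choroid plexus and striatal sums, and their part in this difference was not tested. In 11 members C and D were both above every other library, against 2.16% of tested genes: Sdhb and Sdhd of complex II, Cyc1 and Uqcrfs1 of complex III, Cox5a and Cox7a1 of complex IV, Atp5a1 and Atp5g3 of complex V, and Ndufa1, Ndufa6 and Ndufaf2 of complex I. Ndufa1 and Ndufa6, accessory subunits, were named after their values were seen.

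A trend with depth from A to F, linear and quadratic, was tested over the 7 libraries with limma and Benjamini-Hochberg adjustment over all 13164 genes. It passed an adjusted p of 0.05 in 17 of 99 members, against 44.1% of tested genes, with 11 rising with depth (against 35.4%) and 6 falling (against 8.69%). At an unadjusted p of 0.05 there were 22 of 99 members, against 7150 of the 13164 tested genes. Rising and falling name the sign of the fitted slope. Of the long members 5 rose with depth, 50.0% against 43.1% of other long genes, and of the short members 1, or 1.61% against 11.0% of other short genes. Those that rose were 3 of complex I, 3 of complex II, 2 of complex III, none of complex IV and 3 of complex V, and those that fell were 4 of complex IV and 1 each of complexes I and V. The count rested on single libraries: it was 3 without A, 61 without B1 (16 rising and 45 falling), 11 without C, 11 without D, 10 without E and 11 without F, and 14 without B2. The shares of all tested genes called in these fits are not set beside the counts. They thus show the dependence on libraries and nothing particular to the members.

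The steepest rises were those of Ndufs1 and Sdha. Ndufs1 rose by 0.32 ± 0.045 on the log2 scale per segment (SE, adjusted p = 0.00317 by limma), Sdha by 0.28 ± 0.045 (adjusted p = 0.00477) and Uqcrfs1 by 0.18 ± 0.038 (adjusted p = 0.00599). Atp5s rose by 0.25 ± 0.043 (adjusted p = 0.00438). Sdhd, Sdhc, Atp5a1 and Atp5f1 rose by 0.10 to 0.14 per segment with adjusted p of 0.0127 to 0.0469. Each p is that of the linear and quadratic terms together. With a linear term alone 5 of the 17 passed, Sdha and Ndufc2 rising and Ndufa4l2, Cox6a2 and Ndufb7 falling, and Atp5f1 was highest in D and lower again in F. The other members that passed, named for that reason, were Uqcrc2, a core subunit of complex III, at 0.20 ± 0.051, Ndufc2, an accessory subunit of complex I, at 0.18 ± 0.038, and Ndufaf4, an assembly factor of complex I, at 0.13 ± 0.048. The rise of Ndufaf4 and Atp5f1 took the opposite sign, without passing the test, when GC content was corrected for.

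Of the 6 members that fell, 4 were tissue forms or relatives of complex IV subunits. Among these, Cox6b2, Ndufa4l2 and Cox4i2 had means of only 1.57, 1.88 and 2.08 FPKM. The widest interval of each exceeded 50% of its mean, and Cox4i2 was high in A alone. Ndufa4l2 fell by 0.39 on the log2 scale per segment (SE 0.060, adjusted p = 0.00523 by limma), Cox6a2 fell by 0.37 (SE 0.053, adjusted p = 0.00476) and Cox4i2 fell by 0.29 (SE 0.086, adjusted p = 0.0181). Cox6b2 passed with a slope of -0.12 ± 0.11, carried by the curved term of the fit, and its slope was 0.24 without A. Ndufb7, an accessory subunit of complex I, and Atp5d, the delta subunit of F1, fell by 0.21 and 0.19 and were named because they passed. In these last members A was high (122 and 390 FPKM) and E and F were low (51.5 and 50.3 FPKM for Ndufb7, and 175 and 172 FPKM for Atp5d).

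**Figure D5:**
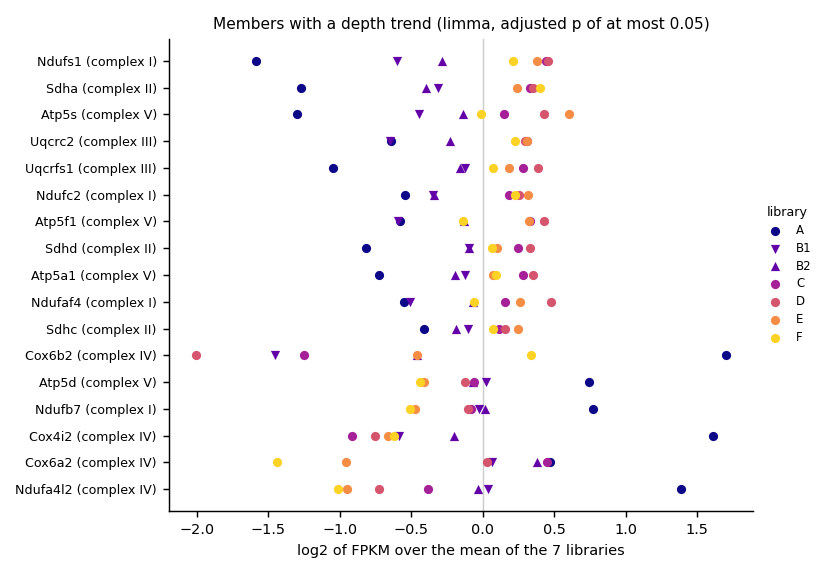
log2 of FPKM over the mean of the 7 libraries (x axis) for the 17 members with a depth trend (y axis), with 1 symbol per library. In the upper 11 members A lies lowest or with B1 at the low end, and in the lower 6 the highest value is in A.

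Layer 5 was tested by setting C and D against the other 5 libraries. No member passed an adjusted p of 0.05 by limma, against 3 of all 13164 tested genes (0.0228%). At an unadjusted p of 0.05 by limma 1 of 99 members passed, against 193 of the tested genes. That member was Cox7a1, with a log2 difference of 1.60 ± 0.48 (SE, adjusted p = 0.999 by limma). In 71 of 99 members the difference was positive (71.7%, against 64.0% of tested genes), and its median was 0.17 on the log2 scale against 0.11 for tested genes. For Sdha the difference was 0.61 ± 0.43 and for Ndufs1 0.82 ± 0.49. Differences of this size were not detectable with these 7 libraries, and larger ones also failed. The layer 5 gene Fezf2 had a log2 difference of 2.15 and did not pass (adjusted p = 0.999 by limma), nor did Bcl11b at 0.73. The lack of calls among the members therefore cannot tell an absent layer 5 difference from an undetected one.

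Transcripts of a gene could differ as well. Of 39 members with at least 2 transcripts of a mean of at least 1 FPKM, 33 had transcripts that differed in opposite directions between some pair of libraries by their intervals, where 76.6% of all 4118 such genes did. Between A and D this held for 18 (against 29.6%) and between B1 and B2 for 10 (against 35.0%). Some of these calls rest on a transcript listed at 0 with an interval of 0 to 0, as in Atp5g1 and Cox7c. Any interval above 0 clears such an interval, so these calls are less certain. In 20 members the longest transcript was at least 2 times as long as the shortest. In 14 of these (70.0%) the shortest had the larger share in A, with medians of 38.6% for the shortest and 13.7% for the longest, and in other genes the same held for 53.5% of 1861. Ndufv3, an accessory subunit of complex I, had a transcript of 425 nt at 221, 50.6, 103, 94.99, 80.1, 63.3 and 54.1 FPKM and one of 1517 nt at 0, 6.89, 7.39, 6.82, 6.84, 6.68 and 9.57 FPKM. The short form was highest in A, where the long form was listed at 0 with an interval of 0 to 0. Uqcrq had a transcript of 405 nt at 147, 69.8, 99.7, 93.6, 109, 76.0 and 78.5 FPKM and one of 1521 nt at 23.2, 23.5, 19.7, 24.9, 24.5, 26.2 and 24.8 FPKM. The long form was even over the libraries and did not differ between A and B1 as the short form did.

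Upstream sequences from RefSeq (build GRCm38.p6) were found for 72 of the 99 members, and the 250 bases before each transcript start were searched on both strands for letters bound by known regulators of respiratory genes. NRF1 letters (GCGCANGCG) were in 15 members, 20.8%, against 13.2% of the tested genes and 5.86% of all genes in the table. ETS letters (CCGGAAG), which NRF2/GABP binds, were in 14 members, 19.4%, against 15.4% and 7.83%. YY1 letters (AAGATGGCG) were in 1 member, Atp5j (1.39%, against 1.38% of tested genes). ERR letters (TCAAGGTCA) were in 1 member, Atp5g3 (1.39%, against 0.324%). TATAAA was in 5 members, 6.94%, against 7.67% of tested genes. Matches of different motifs can overlap in a promoter, and a match describes letters and not a bound site. The following stretches of 30 bases, all on the minus strand, come from genes low and high in A. The first 4 are shown because the same letters precede genes at opposite ends of the range of shares in A. The last is shown as the paralog of Atp5g2 and the sole member with ERR letters among the 72 searched. Sdha (chr13:74350319-74350348), Sdhd (chr9:50603909-50603938), Atp5g2 (chr15:102671070-102671099) and Atp5k (chr5:108434430-108434459) hold NRF1 letters, and Atp5g3 (chr2:73911359-73911388) holds ERR letters, read on the opposite strand. Capitals mark the motif.
Sdha: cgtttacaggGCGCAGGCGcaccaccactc
Sdhd: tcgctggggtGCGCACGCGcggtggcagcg
Atp5g2: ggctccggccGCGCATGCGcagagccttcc
Atp5k: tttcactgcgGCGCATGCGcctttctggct
Atp5g3: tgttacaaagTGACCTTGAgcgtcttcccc
The share in A of these genes was 6.65% for Sdha, 9.35% for Sdhd, 40.0% for Atp5g2, 57.6% for Atp5k and 12.3% for Atp5g3. Over all 15 members with NRF1 letters it ran from 6.65% to 57.6% with a median of 30.2%, and it was 24.9% over those without.

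Other genes of the pathway were read from the same fits. Of 36 tested assembly factors outside the rule, 12 rose and 1 fell with depth (33.3% and 2.78%, against 35.4% and 8.69% of all tested genes). In 22 of them C or D was highest (61.1%, against 18.6% of tested genes), and their median length was 1436 nt. Cycs, which encodes cytochrome c, measured 5.62, 0.718, 2.31, 2.74, 2.55, 2.72 and 1.98 FPKM, high in A and low in B1 like the short members, and did not pass the test. Of 11 regulators, Gabpa (the DNA-binding part of NRF2) and Tfb1m (a mitochondrial rRNA methyltransferase) rose and Ppargc1b (a coactivator) fell. These were 18.2% and 9.09% of the regulators, against 35.4% and 8.69% of all tested genes. Ppargc1a, the related coactivator of mitochondrial biogenesis, measured 5.13, 5.57, 7.13, 12.9, 10.3, 7.02 and 6.20 FPKM, highest in C and then D, without passing either test. By segment, with B as the mean of B1 and B2, the 13 mitochondrially encoded subunits were all highest in A. By library, mt-Nd2 and mt-Nd6 were higher in B2 (3774 and 3928 FPKM) than in A (3441 and 3679 FPKM). All 13 were higher in B2 than in B1. With depth 4 fell (30.8%, against 8.69% of all tested genes) and 0 rose (against 35.4%). Their summed FPKM was 62068, 17430, 46398, 24089, 24493, 19523 and 13461. Of 13 tested inner membrane proteins with other roles, 7 rose and 1 fell with depth (53.8% and 7.69%, against the same 35.4% and 8.69%).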

How the data were processed

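Polyadenylated RNA of 7 libraries of primary somatosensory cortex was sequenced from both ends (50 nt used). Per the paper's methods and the submitters' processing notes, the authors aligned reads to mm9 with TopHat 1.0.13 and computed FPKM of Ensembl release 57 genes and transcripts, with 95% intervals, in Cufflinks 0.8.3. The deposited FPKM values were used as they stand, and a gene missing from a library was set to 0. The deposited coverage of transcripts served only to estimate depth. Symbols, GC content and missing lengths were taken from GENCODE M21 by identifier only.

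Genes averaging 1 FPKM or more were fitted on log2(FPKM + 0.1) with limma 3.58.1 in R 4.3.3, which was tested on simulated data first. The trend left 4 residual degrees of freedom and the comparison of C and D with the rest left 5. Fold changes of low genes are understated on this scale. Shares, counts and medians carry no test. Lengths are those of the transcript with the highest mean FPKM, and corrections used loess with a span of 0.3. The members, lists and named genes were chosen with earlier results of these data known. Named genes were, for each complex, the 2 most abundant members and those with the highest and lowest shares in A and in C and D, the 5 with the smallest p in either test, the 5 with the largest ratio of B2 to B1, complex II, Cyc1 and the paralog sets. Python 3.11.15 with pandas 2.3.3 was used for the rest.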

Additional observations from a re-analysis of the deposited data

How the results depend on the processing

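No paired analysis was possible because only segment B had more than 1 library. The count of 17 members with a depth trend was 10 with a GC correction, 5 with a linear term alone and 0 with an F-test across the 6 segments, which leaves 1 residual degree of freedom, and ranged from 3 to 61 when a library was left out. Shares of all tested genes are not set beside this count or the rising and falling counts below, except totals for median-of-ratios scaling. The counts show the dependence on the processing and nothing particular to the members. The 11 that rose became 4 with median-of-ratios scaling, 3 with the GC correction, 2 with a linear term and 0 with the F-test (1 to 16 with a library left out). The 6 that fell became 3 at a mean of 5 FPKM, with narrow intervals or with a linear term, 12 with median-of-ratios scaling, with length correction and with length and GC correction, 11 with scaling to nuclear genes and 0 with the F-test (2 to 45 with a library left out). Scaling by median of ratios divided A by 0.787 and F by 1.15, and moved the calls of all genes from 4664 rising and 1144 falling to 2351 and 2134. Of its 16 members called, 10 were among the 17, as were 13 of 23 with length correction. Reversed slopes were -0.037 for Atp5f1 and -0.054 for Ndufaf4 with GC correction, -0.054 for Ndufaf4 with length and GC correction, and 0.24 for Cox6b2 without A (-0.44 to 0.24 over the libraries left out).

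The median share in A of all members was 30.7% with median of ratios, 17.4% with length, 25.8% with GC, 17.6% with both corrections and 23.2% with narrow intervals (24.2% to 24.9% with B1 or B2 left out), and that in C and D was 30.7%, 36.3% with length, 36.8% with both and 34.9% with narrow intervals. No library of another segment was left out for the shares. By complex, the share in A with median of ratios was 30.7%, 14.1%, 32.9%, 33.2% and 37.0% for I to V, with length 16.5%, 10.03%, 19.95%, 17.8% and 22.4%, and with length and GC 16.7%, 9.93%, 19.8%, 18.5% and 20.04%. With GC it was 25.8%, 12.7%, 35.7% and 33.6% for I to IV, with nuclear scaling 25.3% for I and 11.2% for II, with narrow intervals 23.6%, 20.5%, 23.8% and 18.0% for I, III, IV and V, and with subunits alone 25.2% for I and 23.3% for III (complex I 24.1% to 24.7% with B1 or B2 left out). By length, median of ratios gave 35.0%, 22.6% and 13.9% for short, medium and long members, annotated lengths 15.4% for medium and 12.3% for long, and nuclear scaling 11.0% for long. Members highest in A numbered 42 with length and 38 with length and GC, and those highest in C or D 50 with both, without a like count over all tested genes. The summed FPKM of A was 1.79 times that of C and D with median of ratios. Of other values under the alternatives, those of named genes, of single complexes and of all tested genes, 283 held. A tested value held if it kept its direction and side of the threshold. An untested one held if it stayed within a set margin, mostly the spread between B1 and B2. Another 100 kept the direction but no longer passed, 38 with no test moved beyond the margin and 4 reversed. Of the summary values 153 held and 77, given above, did not. By limma 0 members were called in the layer 5 comparison under every alternative run. The causes were not tested. The widest interval exceeded 50% of the mean in 22 of 99 members, among them 6 of 8 pseudogenes, Cox6b2, Ndufa4l2 and Cox4i2. The values of such members are less certain.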
